A study of Homo sapiens with 18 samples.

Results

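The guanylate-binding protein genes GBP1, GBP2, GBP3, GBP4 and GBP5 were followed across RNA-seq libraries of bladder cancer (BLCA) cells with and without knockdown of ACAT1, which encodes a mitochondrial acetoacetyl-CoA thiolase. They were 5 of the 39496 genes in the count table, taken by gene symbol, and all 5 passed the filter on low counts that kept 20144 genes. The family was selected on the fold change of GBP2, known to be among the larger rises after ACAT1 knockdown in these libraries. Differences between siACAT1 and siNC are therefore given for these genes as a description, without a test.

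The libraries came from UM-UC-3 and T24, established human BLCA cell lines labelled wild type. Cells of each line were transfected with a control siRNA (siNC) or with siACAT1-1 or siACAT1-2, siRNAs against ACAT1, giving 6 groups of 3 libraries labelled as biological replicates. The libraries are called below by cell line, siRNA and replicate number. Each line is a single culture model, all cells had been transfected, and an untransfected group was not analysed here.

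Guanylate-binding proteins are large GTPases of the dynamin superfamily that interferons induce, interferon gamma most of all, in part through the transcription factor IRF1. They assemble on bacteria and on the vacuoles of intracellular pathogens, and GBP1 forms a platform there that activates caspase-4, a sensor of bacterial lipopolysaccharide. GBP1, GBP2 and GBP5 carry a C-terminal motif to which a lipid is attached, and GBP3 and GBP4 lack it. In epithelial and tumour cells the family is best known as a readout of interferon signalling.

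The 5 genes lie on the minus strand of chromosome 1 in GRCh38, within 266 kb, with GBP7 between GBP2 and GBP4. In the gene models of the count table, GBP3 spans chr1:89006666-89022894, GBP1 chr1:89052319-89065360, GBP2 chr1:89106132-89150456, GBP4 chr1:89181148-89198932 and GBP5 chr1:89258950-89272804. The GBP2 model shares 621 of its exon bases (9.89%) with GBP7, whose own count was between 0 and 2 in every library. An antisense gene, RP4-620F22.2, overlaps 3.98% of the GBP5 exon bases, and the strand setting of the counting is not given in the sources used here, so reads of the pair cannot be told apart. No stretch of 100 bases was shared between the transcripts of any pair of the 5 genes in GENCODE v44. GBP2 shared 7.21% of such stretches with GBP7, and GBP1 shared 0.867% with the pseudogene GBP1P1, which had between 0 and 10 counts. Shorter stretches, of 50 bases, were shared between members. GBP1 shared 2.74% of its own with GBP3 and 0.513% with GBP2, and GBP2 shared 0.11% with GBP3 and 0.0689% with GBP4.

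A regulatory element that links these genes to interferon is the interferon-stimulated response element (ISRE), and its bases are shown for the genes with a promoter entry. RefSeq promoters of GRCh38.p14, from 250 bases before to 50 bases after the start, were given for 3 of the 5 genes (GBP1, GBP3 and GBP4). They were searched on both strands for the ISRE core (GAAA, any 2 bases, GAAA), the gamma-activated site (GAS) core TTCNNNGAA and the AP-1 motif TGANTCA. The windows below run 5′ to 3′ on the minus strand, with the ISRE core in capitals. The core is on the opposite strand in all 3, so that its reverse complement is printed.
GBP1: aacgaagtacTTTCAGTTTCatattactct
GBP3: aaagaagtacTTTCAGTTTCattaggctct
GBP4: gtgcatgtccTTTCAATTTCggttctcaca
The windows are chr1:89065316-89065345 for GBP1, chr1:89022845-89022874 for GBP3 and chr1:89198927-89198956 for GBP4. Counted from the RefSeq start, the core runs from -127 to -118 in GBP1, from 2 to 11 in GBP3 and from -4 to 5 in GBP4. The cores of GBP1 and GBP3 lie inside the gene models of the count table. Of the 30 bases, 25 were the same in GBP1 and GBP3, against 16 in GBP1 and GBP4 and 16 in GBP3 and GBP4. An ISRE core was thus found in 3 of 3 promoters, against 3.57% of 35116 promoters of the same length. The promoters of the related genes GBP6 and GBP7, searched in the same way, held none. A GAS core and an AP-1 motif with these letters were found in GBP3 alone of the 3, against 7.66% and 7.71% of all promoters. Looser forms of the GAS were not searched, so the absence of a match does not show that GBP1 or GBP4 lacks one. A match is a description of the letters and not of a bound site.

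Between 25163490 and 34417230 reads were counted on genes per library, with a median of 28613163. ACAT1 itself fell with both siRNAs. Its mean was 46 ± 1.68 RPKM (counted reads scaled to gene length and to the library total; SD, n = 3) with siNC in UM-UC-3 cells, 3.05 ± 0.703 with siACAT1-1 and 2.16 ± 0.544 with siACAT1-2. In T24 cells it was 16.2 ± 1.4, 1.29 ± 0.149 and 0.792 ± 0.122 RPKM. Over the 4 comparisons the log2 fold change was -4.09 (SE 0.12, adjusted p = 2.1e-12, edgeR quasi-likelihood test). Urothelial keratins were expressed in both lines: of 15 urothelial markers, KRT7, KRT8 and KRT18 reached 1 RPKM in every group, and the uroplakins did not. Of 10 immune cell markers CD68 alone did, the summed level of 6 endothelial markers stayed at or below 0.349 RPKM, and of 7 fibroblast markers COL1A1 and, in UM-UC-3 cells, COL3A1 reached 1 RPKM. After knockdown 2 of 10 tested urothelial markers were higher, with a median log2 fold change of -0.25, and 0 were called. When the model held a block for each replicate number of a line, KRT7 (-0.33), KRT18 (-0.31) and KRT8 (-0.19) were called lower. CD68 was called higher with this block (0.51) and without the T24 libraries numbered 2 (0.57), and not otherwise (0.43, adjusted p = 0.819, edgeR). The part of these markers in the values of the GBP genes was not tested. The T24 libraries numbered 2 stood apart with all 3 siRNAs. Their CD68 level was 121 to 169 RPKM, against 15.7 to 41.5 in the other T24 libraries and 126 to 216 in the UM-UC-3 libraries. What this level reflects was not tested. Values without the T24 libraries numbered 2 are given below where they matter.

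GBP3 was the most abundant of the 5 genes in every group, GBP1 and GBP2 were low to intermediate, and GBP4 and GBP5 were close to absent. In siNC libraries GBP3 stood above 91.1% of the tested genes in T24 cells, by mean RPKM, and above 47.2% in UM-UC-3 cells. The same figures were 57.6% and 12.5% for GBP1, 42.3% and 17.4% for GBP2, 4.73% and 3.08% for GBP4, and 5.22% and 3.49% for GBP5. In bulk RNA, fewer expressing cells and less RNA per cell cannot be told apart.

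GBP2 encodes a GTPase that, once prenylated, sits on intracellular membranes. With siNC its level was 0.26, 0.278 and 0.206 RPKM in UM-UC-3 replicates 1 to 3. With siACAT1-1 it was 0.271, 0.467 and 0.321 RPKM, and with siACAT1-2 it was 0.558, 0.695 and 0.715 RPKM. The siACAT1-2 libraries were all above the siNC and siACAT1-1 libraries, while siACAT1-1 replicate 1 fell within the siNC range. In T24 cells GBP2 was at 0.917, 2.3 and 0.977 RPKM with siNC. It was at 4.4, 3.52 and 4.3 RPKM with siACAT1-1 and at 4.46, 2.53 and 4.01 RPKM with siACAT1-2. Both siACAT1 groups of T24 cells lay above every siNC library, and the lowest siACAT1 library and the highest siNC library both carried number 2.

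By group mean, GBP2 was lowest with siNC in UM-UC-3 cells (0.248 ± 0.0373 RPKM), followed by siACAT1-1 (0.353 ± 0.102) and siACAT1-2 (0.656 ± 0.0855) in the same line. Next came T24 cells with siNC (1.4 ± 0.782), siACAT1-2 (3.67 ± 1.01) and siACAT1-1 (4.08 ± 0.481). Among neighbours in this order, siNC and siACAT1-1 of UM-UC-3 cells overlapped, as did both siACAT1 groups of T24 cells, and the other neighbours did not. GBP2 thus did not overlap with siNC in 3 of 4 comparisons. Of all tested genes, 7.4% lay wholly above siNC in UM-UC-3 cells with siACAT1-2, 6.22% in T24 cells with siACAT1-1 and 5.68% in T24 cells with siACAT1-2. In UM-UC-3 cells with siACAT1-1, where none of the 5 genes did, the share was 5.84%.

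GBP1, the best studied member and the one that first coats bacteria, was scarce in UM-UC-3 cells. Its level there was 0.142, 0.125 and 0.162 RPKM with siNC, 0.27, 0.117 and 0.0942 RPKM with siACAT1-1, and 0.161, 0.266 and 0.281 RPKM with siACAT1-2, from 14 to 40 reads per library. The 3 groups of this line overlapped. In T24 cells GBP1 was at 2.18, 5.03 and 1.36 RPKM with siNC. It was at 8.18, 7.47 and 4.94 RPKM with siACAT1-1 and at 5.42, 4.26 and 4.02 RPKM with siACAT1-2. Replicate 2 of T24 siNC reached into the range of both siACAT1 groups, and without this library the siACAT1 groups lay above the remaining 2. The order of the group means was siNC, siACAT1-1 and siACAT1-2 in UM-UC-3 cells (0.143 ± 0.0187, 0.16 ± 0.0953 and 0.236 ± 0.0651 RPKM), then siNC, siACAT1-2 and siACAT1-1 in T24 cells (2.86 ± 1.93, 4.57 ± 0.749 and 6.86 ± 1.7 RPKM). Only the step from UM-UC-3 to T24 cells separated neighbours in this order without overlap.

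GBP3, a member without the lipid attachment motif, was at 1.42, 1.44 and 2.07 RPKM with siNC in UM-UC-3 cells. It was at 3.21, 1.62 and 2.77 RPKM with siACAT1-1 and at 2.16, 1.96 and 2.89 RPKM with siACAT1-2. In each siACAT1 group of this line 1 library lay within the siNC range, replicate 2 in both cases. In T24 cells GBP3 was at 20.5, 40.1 and 19.1 RPKM with siNC, 38.9, 48.5 and 38.6 RPKM with siACAT1-1, and 31.1, 55.4 and 34.8 RPKM with siACAT1-2. The library numbered 2 was the highest in all 3 T24 groups, and siNC overlapped with both siACAT1 groups. The means ran from 1.64 ± 0.372 RPKM with siNC over 2.34 ± 0.487 with siACAT1-2 to 2.53 ± 0.823 with siACAT1-1 in the UM-UC-3 line. In the T24 line they ran from 26.6 ± 11.7 with siNC over 40.4 ± 13.1 with siACAT1-2 to 42 ± 5.63 RPKM with siACAT1-1, and within a line all neighbours overlapped.

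**Figure D1:**
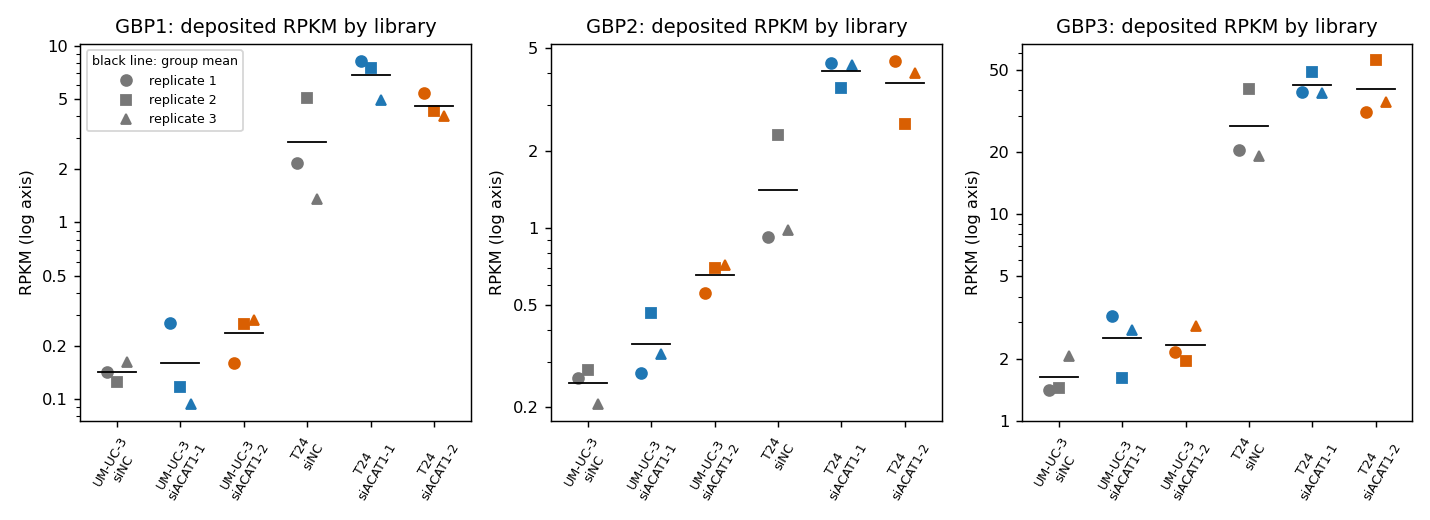
RPKM of GBP1, GBP2 and GBP3 (log axis) in each of the 18 libraries by cell line and siRNA, with the marker giving the replicate number and the black line the mean of 3 libraries. Every T24 library lies above every UM-UC-3 library for all 3 genes, and among T24 siNC libraries replicate 2 is the highest, with 5.03, 2.3 and 40.1 RPKM.

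GBP4 and GBP5 rested on few reads. GBP4, a member without the lipid motif, had 0, 6 and 0 reads with siNC, 2, 6 and 2 with siACAT1-1 and 6, 0 and 10 with siACAT1-2 in UM-UC-3 replicates 1 to 3. In T24 cells it had 6, 0 and 12 reads with siNC, 16, 2 and 4 with siACAT1-1 and 0, 0 and 6 with siACAT1-2. No group of GBP4 libraries was apart from another, and the highest level was 0.0965 RPKM. GBP5, a prenylated member known for its role in inflammasome assembly in macrophages, had between 2 and 10 reads in a UM-UC-3 library and between 0 and 20 in a T24 library, at most 0.0773 RPKM. A count of 0 allows up to 3 reads at this depth, by counting error alone and only if reads were counted independently, which the even counts below leave unclear. All 18 counts of GBP4 and all 18 of GBP5 were even numbers, with 6 and 1 of them at 0. Over all genes, 74.4% of counts from 1 to 10 were even, against 51.4% of counts over 1000, and whether reads or read pairs were counted is not given in the sources used here. GBP6 had at most 4 reads in a library.

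Summed over the 5 genes, the level with siNC was 30.9 ± 14.4 RPKM in T24 cells against 2.06 ± 0.354 RPKM in UM-UC-3 cells. With siNC, GBP3 made up 86.6 ± 2% of the sum in T24 and 79.4 ± 4.1% in UM-UC-3 cells. GBP2 made up 4.42 ± 0.501% and 12.5 ± 3.56%, and GBP1 8.69 ± 2.2% and 7 ± 0.663%. With siACAT1-1 and siACAT1-2 the GBP2 share was 7.8 ± 1.65% and 8.1 ± 3.57% in T24 cells, against 12.6 ± 7.2% and 20.3 ± 3% in UM-UC-3 cells. The share of GBP2 was higher than with siNC in every library of UM-UC-3 siACAT1-2 and T24 siACAT1-1, and it overlapped with siNC in the other siACAT1 groups.

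The first comparison asked how the 5 genes differed with ACAT1 knockdown. Averaged over the 4 comparisons, the fitted log2 fold change of siACAT1 against siNC was 1.22 (SE 0.21) for GBP2, 0.71 (SE 0.27) for GBP1 and 0.60 (SE 0.18) for GBP3. For GBP4 it was 0.27 (SE 0.88) and for GBP5 0.12 (SE 0.61), within 1 SE of 0. By size of the rise GBP2 stood at place 215 of 20144 tested genes, and at place 39 of the 13118 with a mean of at least 1 RPKM over the 18 libraries. GBP1 and GBP3 stood at places 695 and 958 of the tested genes, GBP4 at 3105 and GBP5 at 6156. Of the 5 genes, GBP2 was among the 22 called higher (0.109% of tested genes, adjusted p under 0.05), and none was among the 23 called lower (0.114%). With the replicate block GBP1, GBP2 and GBP3 were among 1198 called higher (5.95%), and none was among 1302 called lower (6.46%). These counts repeat the choice of the family and support nothing about it.

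The fitted values differed between the comparisons. For GBP2 the log2 fold change was 0.51 (SE 0.35) with siACAT1-1 and 1.36 (SE 0.34) with siACAT1-2 in the UM-UC-3 line. In the T24 line it was 1.58 (SE 0.32) and 1.45 (SE 0.32). For GBP1 the values in the same order were 0.15 (SE 0.48), 0.68 (SE 0.47), 1.29 (SE 0.39) and 0.72 (SE 0.38). For GBP3 they were 0.62 (SE 0.28), 0.47 (SE 0.28), 0.68 (SE 0.28) and 0.62 (SE 0.28), the narrowest range of the 3 genes. Within a cell line, both siRNAs were set against the same siNC libraries.

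Libraries of a line were then matched by replicate number, which gave 12 differences for each gene on the log2 CPM scale, with counts scaled to library size. GBP2 was higher than in the siNC library of its number in 12 of 12, by 0.01 to 2.30 with a median of 1.14. GBP3 was higher in 12 of 12, by 0.19 to 1.12 with a median of 0.51. GBP1 was higher in 9 of 12, from -0.69 to 1.90 with a median of 0.76, and GBP4 and GBP5 in 7 of 12 each. Of all tested genes, 326 (1.62%) were higher in 12 of 12. Both siRNAs of a line were set against the same siNC library of a number, so the 12 are not independent. The family was chosen on the rise of GBP2 in these libraries, so these counts support nothing about it.

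The spread of the GBP2 differences followed the numbers in T24 cells. For numbers 1 to 3 they were 2.22, 0.63 and 2.17 with siACAT1-1 and 2.30, 0.14 and 2.05 with siACAT1-2, lowest for number 2 each time. T24 siNC replicate 2 lay above its group mean by 0.79 for GBP2, 0.97 for GBP1 and 0.62 for GBP3 on the log2 scale. CASP4, the gene of the caspase that GBP1 activates, was at 43 RPKM in this library against 20.1 and 22 in the other siNC libraries of T24 cells. It was also highest in number 2 with siACAT1-1 (48.6 against 41.8 and 40.6 RPKM) and siACAT1-2 (53.9 against 35.1 and 34.9). GBP3 was too, while GBP1 and GBP2 were not. What sets T24 siNC replicate 2 apart was not tested. Without it the mean log2 fold change was 1.48 for GBP2, 1.02 for GBP1 and 0.78 for GBP3. Without all 3 T24 libraries numbered 2, an alternative added after the data had been seen, it was 1.57, 1.04 and 0.70.

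**Figure D2:**
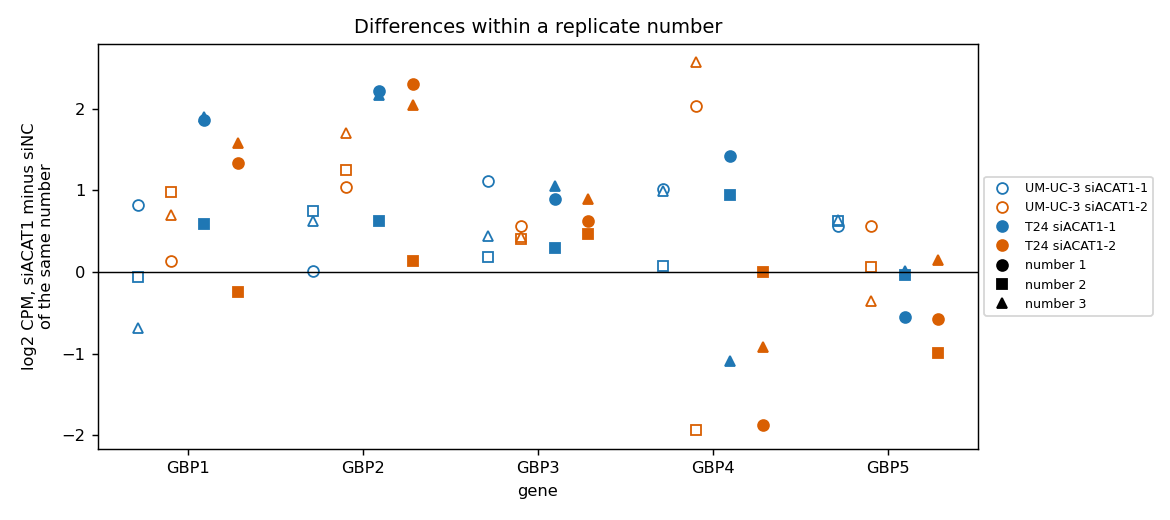
Difference in log2 CPM between each siACAT1 library and the siNC library of its cell line with the same number, for the 5 genes (open markers UM-UC-3, filled markers T24, colour for the siRNA, marker shape for the number, line at 0). All 12 differences are above 0 for GBP2 and GBP3, 9 are for GBP1, and the T24 squares (number 2) are the lowest of the T24 points for GBP1, GBP2 and GBP3.

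The cell lines were compared in the siNC libraries, a contrast that the choice of the family did not use. GBP1, GBP2 and GBP3 were much lower in UM-UC-3 than in T24 cells. The log2 difference (UM-UC-3 minus T24) was -4.25 for GBP1 (95% interval -5.26 to -3.25, adjusted p = 1.5e-06, edgeR quasi-likelihood test), a 19.1-fold difference. For GBP3 it was -3.96 (-4.64 to -3.28, adjusted p = 4.1e-08 from edgeR, 15.6-fold), and for GBP2 -2.42 (-3.18 to -1.67, adjusted p = 3.0e-05 from edgeR, 5.37-fold). All 3 siNC libraries of UM-UC-3 cells were below all 3 of T24 cells for each gene. Of all tested genes, 22.3% were called lower and 22% higher in UM-UC-3 cells, so that a difference between the lines was common. GBP4 and GBP5 were not called, with -1.52 (-4.64 to 1.59, adjusted p = 0.414) and -1.53 (-3.73 to 0.67, adjusted p = 0.236, both edgeR), from 0 to 16 reads in a siNC library. The lines were grown in different media, so that line and medium cannot be told apart. Without the 3 T24 libraries numbered 2 GBP5 was called, at -2.03 (adjusted p = 0.031, edgeR). This alternative, added after the data had been seen, leaves out the T24 siNC library with 2 reads of GBP5. It keeps those with 12 and 16, against 2 to 6 reads in the UM-UC-3 siNC libraries. The call rests on few reads and is not taken as a difference between the lines.

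A further comparison asked whether the siRNAs against ACAT1 differed, as siACAT1-2 minus siACAT1-1 over both lines. The log2 difference was 0.36 for GBP2 (95% interval -0.14 to 0.85, adjusted p = 0.472, edgeR quasi-likelihood test), -0.02 for GBP1 (-0.71 to 0.67) and -0.11 for GBP3 (-0.53 to 0.32). It was -0.66 for GBP4 (-2.81 to 1.48) and -0.39 for GBP5 (-1.92 to 1.14). None of the 5 was called, against 2.56% of the tested genes, and the intervals leave room for a difference of either sign. ACAT1 was lower with siACAT1-2 than with siACAT1-1, by a log2 difference of -0.62 (adjusted p = 0.034, edgeR).

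The effect of knockdown was also compared between the lines (UM-UC-3 minus T24, mean of both siRNAs). The difference of the log2 fold changes was -0.58 for GBP2 (95% interval -1.47 to 0.31), -0.59 for GBP1 (-1.75 to 0.57) and -0.11 for GBP3 (-0.86 to 0.64). For GBP4 it was 1.63 (-2.15 to 5.40) and for GBP5 0.69 (-2.01 to 3.38). Each had an adjusted p of 1 from edgeR. Without T24 siNC replicate 2 the values were -1.05 for GBP2 and -1.18 for GBP1, and without T24 siNC replicate 3 they were -0.34 and -0.22. Without the 3 T24 libraries numbered 2 they were -1.22 (SE 0.30, adjusted p = 0.539) and -1.21 (SE 0.49, adjusted p = 1, both edgeR). The smaller fitted fold changes of GBP1 and GBP2 in UM-UC-3 cells were thus not shown to differ from those in T24 cells. This contrast called 0 of the tested genes (0%) with edgeR, with 517 at an unadjusted p under 0.05, 1 called by DESeq2, 0 by limma and 21 with the replicate block.

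**Figure D3:**
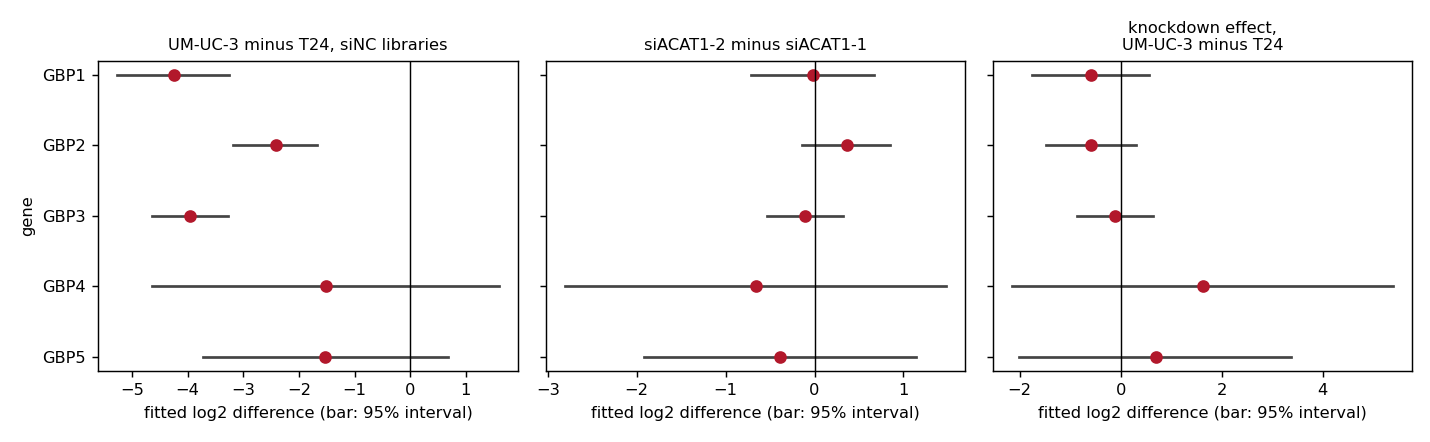
Fitted log2 differences (points) with 95% intervals (bars) of the 5 genes for the cell lines in siNC libraries, for siACAT1-2 minus siACAT1-1, and for the knockdown effect in UM-UC-3 minus that in T24 cells. The intervals of GBP1, GBP2 and GBP3 lie below 0 in the first panel, from -5.26 to -1.67 together, and every interval in the other panels includes 0.

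Genes that act before and beside the family were read from lists of the interferon pathway. The lists here and below are not independent, since IFI16, MX1, MX2, ICAM1 and APOL3 each stand in more than 1 of them. Unless the block is named, calls come from the model that leaves out the pairing by replicate number. Over all tested genes the median log2 fold change after knockdown was 0.00 and 49.8% were higher, and these are the figures against which the lists are set. Of all tested genes 0.109% were called higher, against 5.95% with the replicate block and 1.1% without the T24 libraries numbered 2. Between the lines in siNC libraries 22.3% were called lower and 22% higher in UM-UC-3 cells. These shares were 22.6% and 21.2% without the T24 libraries numbered 2. With the block they were 25.5% and 26.7%, for the line difference fitted at replicate number 1 and not for the mean over the numbers. The block values between the lines in siNC libraries are therefore not the same comparison. Of 5 interferon genes in the table, 1 was tested (IFNE), and IFNL1, IFNL3, IFNK and IFNA1 had at most 5 reads in a library. IFNG and IFNB1 were not analysed here.

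Of 9 receptor and kinase genes, 7 were higher after knockdown with a median of 0.13, and 0 were called. IFNGR1, the ligand-binding chain of the interferon gamma receptor, had 0.40 (SE 0.16, adjusted p = 0.356 from edgeR), IFNGR2, its partner chain, 0.07, and the kinase JAK2 0.09. With the replicate block IFNGR1 and IFNAR2 were called higher (5.95% of tested genes). In the siNC libraries 4 of the 9 were lower in UM-UC-3 than in T24 cells (IFNLR1, IL10RB, IFNGR2 and IFNAR1, against 22.3% of tested genes) and 2 were higher (JAK2 and JAK1, against 22%). IFNAR2 was also called lower and IFNGR1 higher with the block (fitted at number 1) and without the T24 libraries numbered 2. IFNGR2 differed by -1.38 (SE 0.17, adjusted p = 7.8e-06, edgeR).

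Among 9 interferon transcription factors 8 were higher after knockdown, with a median of 0.27, and 0 were called. IRF1, which drives the GBP promoters, had 0.31 (SE 0.19). With the block BATF2 and IRF9 were called. In siNC libraries IRF1 was at 1.82 ± 0.83 RPKM in UM-UC-3 and 2.75 ± 1.01 RPKM in T24 cells, a log2 difference of -0.54 (SE 0.30, adjusted p = 0.154, edgeR). In the same libraries IRF7 and IRF9 were called lower and NLRC5 higher in UM-UC-3 cells, 2 and 1 of 9 against 22.3% and 22% of tested genes. With the block, fitted at number 1, IRF2 was also called lower and BATF2 higher. Without the T24 libraries numbered 2 IRF9 was not called. Of 7 feedback inhibitors of the pathway 5 were higher after knockdown, with a median of 0.25 and 0 called. SOCS1, which blocks JAK kinases, had 0.25 (SE 0.44) at no more than 14 reads in a library, and with the block ISG15 and SOCS3 were called. Between the lines PTPN6, ISG15 and SOCS3 were called lower and PIAS1 higher in UM-UC-3 cells.

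Other targets of interferon were split by type. Of 25 targets linked to interferon gamma, 17 were higher after knockdown with a median of 0.12, and 0 were called. TAP1, the peptide transporter for HLA class I, had 0.04 (SE 0.11) and PSMB9, an immunoproteasome subunit, -0.05 (SE 0.20). With the block APOL1, UBE2L6, SP110 and SP100 were called higher, 4 of 25 against 5.95% of tested genes, and they were called as well without the T24 libraries numbered 2 (1.1% of tested genes). CXCL10 was not analysed here.

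Of 29 targets linked to type I interferon, 28 were higher after knockdown with a median of 0.51, and 1 was called. This was IFIT3, an antiviral protein that binds IFIT1, with 0.76 (SE 0.12, adjusted p = 0.0182, edgeR). The call was lost when 1 siNC library was left out, T24 replicate 1 (adjusted p = 0.0934) or 3 (0.0776) or UM-UC-3 replicate 1 (0.0992) or 2 (0.06, edgeR). The GTPase MX1, a relative of the family, had 0.99 (SE 0.31, adjusted p = 0.243) and IFIT1, which binds viral RNA, 0.27 (SE 0.32, adjusted p = 0.84, both edgeR). With the replicate block 15 of the 29 were called higher and 0 lower, against 5.95% of tested genes called higher, with RSAD2, XAF1, IFI6 and OASL the largest. Without the T24 libraries numbered 2 the count was 5 (IFI6, OASL, IFIT3, SAMD9 and IFI44), against 1.1% of tested genes. In the siNC libraries 21 of the 29 were lower in UM-UC-3 cells and 0 higher, against 22.3% and 22% of tested genes, with a median of -1.80. The largest of these differences were those of BST2, EPSTI1, IFI27 and DHX58, and MX1 was at -3.35 (SE 0.52, adjusted p = 6.7e-05, edgeR). Of the 25 gamma targets 13 were lower, led by ICAM1, CD274, APOL1 and SP110, and 2 were higher (IFI30 and XRN1), with a median of -0.79.

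Partners of the family in cell-autonomous immunity were read last. Of 12 tested, 11 were higher after knockdown with a median of 0.38. CASP1, the caspase of canonical inflammasomes, was called, with 0.91 (SE 0.14, adjusted p = 0.014, edgeR). In UM-UC-3 cells CASP1 was at 1.61 ± 0.436 RPKM with siNC, 2.07 ± 0.242 with siACAT1-1, which overlapped with siNC, and 2.71 ± 0.524 with siACAT1-2, which did not. CASP1 was at 2.09 ± 0.231 RPKM with siNC in T24 cells, 4.79 ± 1.04 with siACAT1-1 and 5.21 ± 0.354 with siACAT1-2, without overlap of siNC with either. Its call was lost without T24 siNC replicate 1 (adjusted p = 0.0662) or 3 (0.0776), without UM-UC-3 siNC replicate 1 (0.0654) and without the UM-UC-3 libraries numbered 3 (0.0569, edgeR). CASP4 had 0.60 (SE 0.16, adjusted p = 0.166, edgeR), and GSDMD, the pore-forming substrate of both caspases, -0.19 (SE 0.13, adjusted p = 0.659, edgeR). With the block CASP1, NLRP3, CASP4, SQSTM1 and IFI16 were called higher, 5 of 12 against 5.95% of tested genes. Without the T24 libraries numbered 2 CASP1, NLRP3 and CASP4 were, 3 of 11 against 1.1%. In siNC libraries CASP4 was lower in UM-UC-3 cells, by -2.04 (SE 0.27, adjusted p = 1.4e-05, edgeR), as were IFI16 and APOL3, and PIM1 was higher, 3 and 1 of 12 against 22.3% and 22% of tested genes. With the block, fitted at number 1, CASP1 was also called lower and RNF213 higher.

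Genes that share position, chemistry or ancestry with the family, and targets of NF-kB, were read in the same way. Of 9 genes beside the cluster on chromosome 1, 3 were higher after knockdown with a median of -0.08, and 0 were called with or without the block. In the siNC libraries 5 of these 9 (LRRC8B, LMO4, LRRC8D, RBMXL1 and PKN2) were called higher in UM-UC-3 cells and 0 lower, against 22% and 22.3% of tested genes, with a median of 0.53. With the block, fitted at number 1, LRRC8C and ZNF326 were also called lower. Without the T24 libraries numbered 2 LRRC8B, LMO4 and LRRC8D alone were called. Of 6 genes for prenylation 4 were higher after knockdown with a median of 0.03, and 0 were called. With the block PGGT1B, a subunit of the geranylgeranyl transferase, was called higher and ICMT, which methylates prenylated proteins, lower. Between the lines RCE1 and FNTA were called higher in UM-UC-3 cells, and with the block, fitted at number 1, FNTA alone was. Of 7 related dynamin-like GTPases 3 were higher after knockdown, with a median of -0.01 and 0 called, and with the block MX1 was called higher. Between the lines MX2, MX1 and ATL1 were called lower and DNM1L and ATL3 higher in UM-UC-3 cells. Of 21 targets of NF-kB, 19 were higher after knockdown with a median of 0.36, and 0 were called. With the block CXCL8, TNFAIP3, SOD2 and NFKBIA were called higher, 4 of 21 against 5.95% of tested genes. In the siNC libraries 15 of these targets were lower in UM-UC-3 cells, led by IL1B, IL1A, ICAM1 and IL6, against 22.3% of tested genes. CCL2, VCAM1 and BIRC3 were higher, 3 of 21 against 22%.

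**Figure D4:**
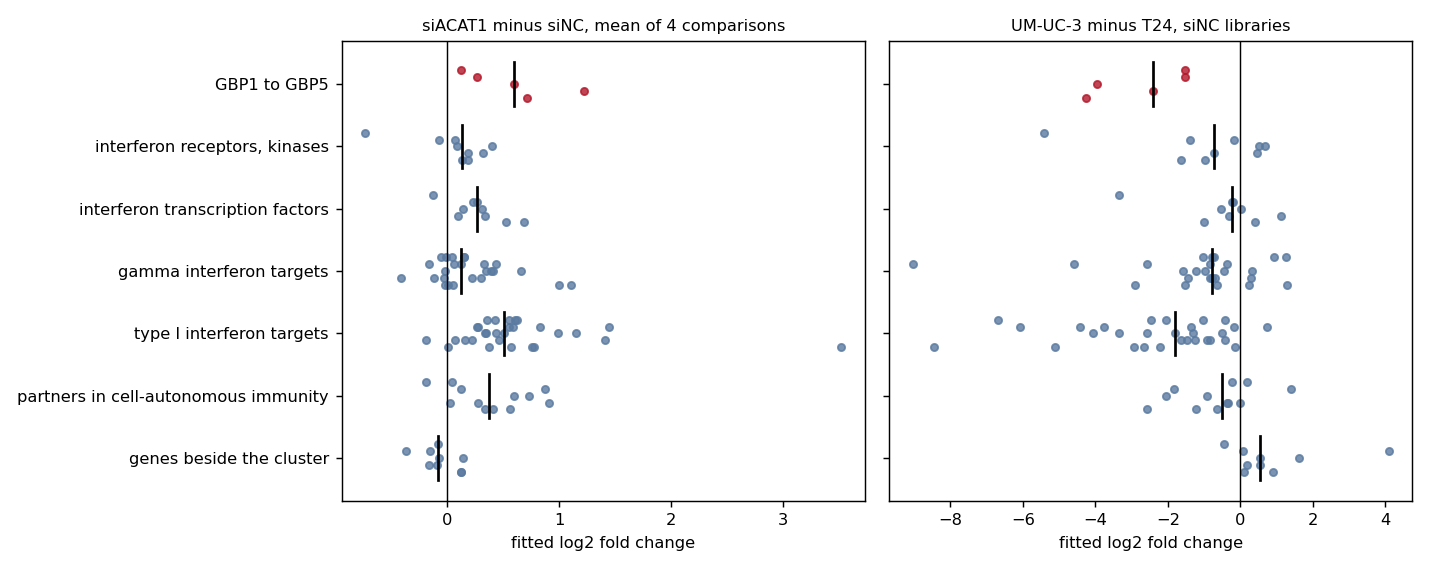
Fitted log2 fold changes of single genes (points, shifted vertically for visibility) with the median of each list (black line), for siACAT1 minus siNC averaged over 4 comparisons and for UM-UC-3 minus T24 cells in siNC libraries. Among the lists shown, the medians after knockdown lie between -0.08 for the genes beside the cluster and 0.60 for GBP1 to GBP5. The family was chosen on this contrast, so its place there is a description without a test. Between the lines all 5 GBP genes lie below 0 while 8 of 9 genes beside the cluster lie above it.

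Likeness of pattern was measured as Pearson's r of log2 CPM over the 18 libraries after the mean of each cell line had been removed. The libraries share replicate numbers and siNC groups, so r is given without a test. GBP2 and GBP1 had an r of 0.73, GBP1 and GBP3 0.67, and GBP2 and GBP3 0.50. In T24 cells alone (9 libraries) GBP2 had 0.87 with GBP1 and 0.72 with GBP3, and in UM-UC-3 cells alone 0.40 and 0.13. With the mean of each group removed, which takes out the knockdown, it had 0.39 and -0.12. ACAT1 had -0.79 with GBP2, a value that holds the knockdown itself, and 0.03 with the group means removed.

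Among genes with a mean of at least 1 RPKM outside the family, those most like GBP2 were SDF4 (0.86), CASP1 (0.85), B2M (0.84), PON2 (0.84) and RAB11B (0.84). SDF4 encodes a calcium-binding protein of the Golgi, B2M the light chain of HLA class I, and RAB11B a GTPase of recycling endosomes. Of these 5 genes, 0 stayed among the 5 most like GBP2 in UM-UC-3 cells alone, 1 in T24 cells alone and 0 with the group means removed. Those most like GBP1 were SP110 (0.81), AC009950.1 (0.81) and TNIP3 (0.78), and those most like GBP3 were IGF2R (0.94), IFNGR1 (0.92) and TBCEL (0.92). For GBP4 they were SEC23A (0.78), BAK1 (0.76) and RP11-755F10.1 (0.73), and for GBP5 DENND2A (0.89), GMPR2 (0.88) and SLC2A1 (0.87), both from few reads of the GBP gene. With the group means removed SP110 and AC009950.1 stayed among the 3 most like GBP1, and in either line alone they did not. The genes named for GBP3, GBP4 and GBP5 did not stay among the 3 most like their member in any of these settings.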

How the data were processed

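RNA of UM-UC-3 and T24 cells (18 libraries, 3 for each of 6 groups) was prepared by the authors with a stranded mRNA kit that adds molecular identifiers and was sequenced on an Illumina NovaSeq. Per the paper and the submitters' processing notes, reads were filtered with Trimmomatic 0.36, mapped to GRCh38 with STAR 2.5.3 and counted on exons with featureCounts (Subread 1.5.1). The authors deposited these counts without normalization for 39496 genes. The authors also gave RPKM values, which scale these counts to gene length and to the counted reads. The annotation release, the strand setting, the handling of multi-mapped reads and the use of the molecular identifiers are not given in the sources used here. Samples were grouped by their titles. All 18 pairs of replicate libraries exceeded sampling noise (chi-square divided by its degrees of freedom, 13 to 194).

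Tests of the counts used R 4.3.3 and edgeR 4.0.16 (TMM, filterByExpr by group, quasi-likelihood) in 1 model of 18 libraries with a coefficient per group. The p values were adjusted by Benjamini-Hochberg over 20144 genes per contrast, with calls at an adjusted p under 0.05. Intervals of 95% used 12 residual degrees of freedom. Log2 CPM used a prior count of 2. The fits were tested on simulated counts. Alternatives were DESeq2 1.42.0 (also for its size factors), limma 3.58.1 on log2(RPKM + 0.1), no filter on low counts, a replicate block and leaving out each library. Leaving out the 3 T24 libraries numbered 2 or the 3 UM-UC-3 libraries numbered 3 was added after the data had been seen.

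Whether replicate numbers pair libraries was checked. Libraries of the same number had deviations from their group means that correlated across genes in 9 of 9 pairs in UM-UC-3 cells (r 0.115 to 0.576) and in 9 of 9 pairs in T24 cells (0.356 to 0.686), against -0.545 to 0.269 and -0.567 to 0.21 for other numbers. The numbers were thus taken to pair libraries within a line, from the data, since neither labels nor paper say what a number marks. The main model leaves this pairing out, and the replicate block holds it. For the siNC libraries of UM-UC-3 against T24, the block gives the difference fitted at replicate number 1. It is not a mean over the numbers. After knockdown 45 genes were called by the main model and 2500 with the block. A gene not called by the main model is therefore not shown to be unchanged.

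The 5 genes, the lists and the rule for named genes were chosen with earlier results of these data known. Besides the 5 genes and ACAT1, the rule named the genes most like each member (5 for GBP2, 3 for the others), up to 4 called genes per list and direction by size of the fold change, and a set of interferon pathway genes, of which 1 is not reported here. Promoters were taken from RefSeq (GRCh38.p14) by symbol.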

Additional observations from a re-analysis of the deposited data

How the results depend on the processing

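Of 601 values recomputed under alternatives, 542 kept their direction and side of the threshold or stayed near the main value, 1 passed the threshold, 13 reversed and 45 moved. Changes of sign in the knockdown values of GBP4 and GBP5 are not among the 13. The knockdown value of GBP5 ran from -0.22 to 0.45 when each library was left out. The line differences of GBP1, GBP2 and GBP3 in siNC libraries were called under every alternative run, of which the replicate block gave the difference fitted at number 1. The fold changes of GBP1, GBP2 and GBP3 after knockdown stayed above 0, with ranges of 0.54 to 1.02, 1.12 to 1.48 and 0.50 to 0.78 when each library was left out.

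The number of genes called after knockdown was 45. It was 383 without the filter, 315 with DESeq2, 2500 with the replicate block, 19 with limma, 436 without the T24 libraries numbered 2, 8 without the UM-UC-3 libraries numbered 3, and 6 (without T24 siNC replicate 1) to 143 (without T24 siNC replicate 2) when each library was left out. For siACAT1-2 against siACAT1-1 it was 515, and in the same order 884, 1298, 4141 with the block, 1401 without the T24 and 166 without the UM-UC-3 libraries, and 165 (without UM-UC-3 siACAT1-1 replicate 1) to 900 (without T24 siACAT1-1 replicate 2). For the effect between lines it was 0, with 29 without the filter, 1 with DESeq2, 21 with the replicate block, 3 without the T24 libraries numbered 2, and 0 to 1 with each library left out. The count between the lines was 8924, and 7591 to 9280 with each library left out.

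The siRNA difference of GBP1 (-0.02) reversed to 0.01 with the replicate block and 0.04 without the T24 libraries numbered 2, and ran from -0.16 to 0.26 with each library left out. That of GBP5 ran from -1.07 to 0.08, the line difference of the GBP3 effect from -0.44 to 0.12, that of GBP1 from -1.18 to -0.22, that of GBP2 from -1.05 to -0.34, and the knockdown value of GBP4 from -0.73 to 2.29. GBP5 between the lines was -2.03 (adjusted p = 0.031, edgeR) without the T24 libraries numbered 2, a call that rests on few reads. Of the 5 genes most like GBP2, 0, 0 and 1 stayed with group means removed, in UM-UC-3 alone and in T24 alone. The cause of these shifts was not tested. The block changed no other tested call among the 5 genes. DESeq2 gave no adjusted p for GBP4 and GBP5 between the siRNAs. Depth limits GBP4 and GBP5, at 20 reads or fewer in a library.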
